A study of Mus musculus with 2 samples.

Results

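Ccn1, Ccn2, Ccn3, Ccn4 and Ccn5 encode matricellular proteins of the CCN family, and Ankrd1 and Amotl2 are widely used target genes of the coactivators YAP and TAZ. These 7 genes were taken by symbol from the 32285 genes of the count tables, with earlier results of these data known, and each was read in the cell classes of mouse synovium. Synovium is the soft tissue that encloses a joint, with a lining layer of Prg4-expressing fibroblasts and macrophages over a vascular sublining. The study held 2 single-cell RNA-seq libraries, 1 of control knees and 1 of knees that carry the labels MMS and D14, which are not spelled out. Both libraries came from wild-type mice and each pooled 20 knees. Pooling and the lack of a second library per group mean that the spread between mice was not measured. Every difference below is therefore between these libraries, without a test, and its interval covers counting error only.

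CCN proteins are secreted and bind integrins, heparan sulphate proteoglycans and growth factors, through which they act on adhesion, matrix turnover and fibrosis. Ccn1 and Ccn2 are immediate targets of YAP and TAZ, coactivators that the kinases of the Hippo pathway hold in the cytoplasm and that act on genes through TEAD factors. Ccn2 is also a target of TGF-beta, and Ccn4 was first known as a Wnt-induced gene. Ccn5 lacks the C-terminal domain of the other family members and is often described as opposing Ccn2.

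The control library held 84900876 unique molecular identifiers (UMIs, counts of single RNA molecules) over 8810 barcodes, and the MMS library 85597195 over 5286. The filters kept 6891 cells of the control and 3765 of the MMS library, whose median depths were 10990 and 17444 UMIs. Of the barcodes kept, 4 occurred in both libraries. Fibroblast-like cells numbered 3213 in control and 1457 in MMS, of which 347 and 582 were called lining-like and 2510 and 237 sublining-like from marker genes, while the rest were left unnamed. All 8 fibroblast markers were detected in the class in both libraries. A fibroblast sub-cluster was called sublining-like when its sublining marker score led its lining score by 0.3, without a minimum sublining score. Sub-clusters 3, 4 and 8, with 461, 229 and 380 control cells, had sublining scores of only 0.03, 0.08 and 0.16. The tendon markers Angptl7 and Tnmd were among the leading genes of sub-clusters 3 and 4, respectively. Goblet cells are the labelled cell type. However, 0 of 6891 control and 0 of 3765 MMS cells had UMIs of 2 or more of 8 goblet markers, which allows a share of up to 0.0435% and 0.0797%. A cluster of 296 MMS cells and 0 control cells carried the tendon markers Thbs4 and Fmod. It was kept apart under the name tendon-marker cluster, and cells of a single library may reflect that library.

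Promoters are shown for Ccn1, Amotl2 and Ankrd1, the members with an entry in the RefSeq promoter set used. Ccn2, Ccn3, Ccn4 and Ccn5 had no entry there, so their promoters are not shown. Each line gives the 250 bases before the RefSeq transcription start on build GRCm38.p6, in the direction of transcription, with the TEAD element CATTCC, read on both strands, in capitals.
Ccn1: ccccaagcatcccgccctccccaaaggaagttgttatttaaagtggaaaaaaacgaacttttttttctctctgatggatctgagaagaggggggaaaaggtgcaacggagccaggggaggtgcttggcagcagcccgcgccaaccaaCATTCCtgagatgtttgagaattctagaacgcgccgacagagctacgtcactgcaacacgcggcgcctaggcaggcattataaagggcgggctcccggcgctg
Amotl2: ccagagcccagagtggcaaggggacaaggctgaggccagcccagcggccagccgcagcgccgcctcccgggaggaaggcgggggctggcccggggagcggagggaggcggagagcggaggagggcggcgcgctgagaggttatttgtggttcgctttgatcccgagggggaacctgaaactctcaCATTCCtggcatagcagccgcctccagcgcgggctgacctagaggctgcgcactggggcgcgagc
Ankrd1: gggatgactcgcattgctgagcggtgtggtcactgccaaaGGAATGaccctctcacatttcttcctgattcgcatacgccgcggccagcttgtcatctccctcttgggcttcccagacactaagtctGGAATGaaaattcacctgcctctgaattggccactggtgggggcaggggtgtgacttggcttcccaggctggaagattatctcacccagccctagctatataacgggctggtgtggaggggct
The windows lie at chr3:145649986-145650235 on the minus strand for Ccn1, chr9:102717554-102717803 on the plus strand for Amotl2 and chr19:36119845-36120094 on the minus strand for Ankrd1. The Amotl2 and Ankrd1 windows lie inside the GENCODE gene spans given below, because the RefSeq start used differs from the GENCODE gene start. Ccn1 held 1 match, which began 103 bases before the start. Amotl2 held 1, which began 65 bases before the start. Ankrd1 held 2, both on the opposite strand and therefore printed as GGAATG, beginning 210 and 123 bases before it. The element occurred in 12.6% of 32851 mouse promoter windows of this length, so a match is a description of the sequence and not a site. No window of the 3 held the AP-1 element TGANTCA, found in 6.75% of promoters, or a CArG box, found in 1.47%, on either strand.

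By GENCODE M21 coordinates, all 7 genes are protein coding. Ccn1 lies on chromosome 3 at 145646976 to 145649981, Ccn2 on chromosome 10 at 24595442 to 24598683, and Ccn3 on chromosome 15 at 54745702 to 54754039. Ccn4 lies further along chromosome 15 at 66891320 to 66923201, Ccn5 on chromosome 2 at 163820861 to 163833146, Ankrd1 on chromosome 19 at 36111961 to 36120099 and Amotl2 on chromosome 9 at 102716672 to 102733418. Ccn2 overlaps Gm15270 on the opposite strand, which had 711 UMIs in control and 1484 in MMS against 29547 and 65644 for Ccn2, and the strand setting of the counting is not given in the sources used here. No other of the 7 overlaps another annotated gene.

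Levels are given as UMIs per 1000000 of the class total (CPM) with exact Poisson 95% intervals. Because the kit counts near the 3′ end and genes differ in how well it captures them, levels are compared between classes of cells for a gene and not between genes. Orders of classes cover those with 50 or more cells in the library concerned. Ccn1, an integrin-binding immediate early protein, was seen in stromal and vascular classes and in macrophage or monocyte-like cells, but at only 2.47 CPM in MMS neutrophil-like cells. In control it was highest in mural-like cells, the smooth muscle and pericytes of vessels (701 CPM, 660 to 744). Unnamed fibroblast-like cells followed at 484, sublining-like cells at 390, and endothelial-like and lining-like cells at 320 and 319, whose intervals overlapped. Macrophage or monocyte-like cells were at 131 CPM. In MMS the order began with sublining-like cells at 577 and adipocyte-like cells at 400. Unnamed fibroblast-like cells (329) and mural-like cells (322) followed with overlapping intervals, and then the tendon-marker cluster (301). Below the limit of 50 cells, 32 control adipocyte-like cells held Ccn1 at 693 CPM and 31 MMS Schwann-like cells at 482.

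Ccn2, the connective tissue growth factor, was concentrated in the lining. Its level was 3402 CPM (3360 to 3444) in control lining-like cells and 2573 (2551 to 2595) in MMS ones, against 37.4 and 144 in sublining-like cells. Apart from 1 T or NK-like cell described below, next in control came unnamed fibroblast-like cells at 308 and mural-like cells at 251. Of the 1942 control UMIs in the unnamed cells, 771 lay in sub-cluster 14 (Fabp4, Cldn5) and 208 in sub-cluster 15 (Lyz2, C1qa). Both sub-clusters are led by genes of other cell types, so the order of unnamed and mural-like cells is not read. Next in MMS came the tendon-marker cluster at 594 and mural-like cells at 541. After every cell had been reduced at random to 2000 UMIs, Ccn2 was seen in 75.4% of control and 87.5% of MMS lining-like cells, and in 3.56% and 12.6% of sublining-like cells. For comparison, 0.990% of MMS neutrophil-like cells (median depth 13810 UMIs) and 1.41% of control cells of unnamed cluster 11, marked by MHC class II genes (median depth 15529), held a Ccn2 UMI at that depth. Those values measure the RNA seen in cells that should lack the gene. Before the reduction, lining-like cells had a median of 21249 UMIs in control and 33405 in MMS, and 85.6% and 96.7% of them held Ccn2.

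Ccn3, a family member linked to restraint of growth and to Notch signalling, was highest in unnamed fibroblast-like cells of control (498 CPM, 481 to 516), with sublining-like cells at 122 and lining-like cells at 35.9. In MMS the same 3 subsets were at 92.5, 59.0 and 44.3 CPM. Ccn4, known as a Wnt-induced secreted protein, was at most 5.64 CPM in any control class of 50 or more cells. In MMS it reached 86.2 CPM (80.4 to 92.4) in the tendon-marker cluster, where 73.0% of cells held a UMI, and 51.3 in unnamed fibroblast-like cells. Ccn5 in control was at 220, 172 and 163 CPM in unnamed, sublining-like and lining-like fibroblasts, the last 2 with overlapping intervals. In MMS these subsets were at 946, 455 and 580 CPM. Endothelial-like and macrophage or monocyte-like cells had at most 4.36 CPM of Ccn5 in either library.

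Amotl2, an angiomotin scaffold that binds YAP at cell junctions, was highest in control endothelial-like cells (163 CPM, 154 to 172), followed by mural-like (129) and sublining-like cells (94.9). In MMS it was highest in sublining-like cells at 109 CPM among classes of 50 or more cells, while 31 Schwann-like cells held 155 CPM (108 to 215). Ankrd1, a muscle ankyrin repeat protein, had 1 UMI in the control library, in an endothelial-like cell, and 1 UMI in the MMS library, in a sublining-like cell. It was seen in 1 of 6891 and 1 of 3765 kept cells, and no ratio can be given at this depth. The remaining family member, Ccn6, had 11 UMIs in control and 5 in MMS. The control T or NK-like class had 348 CPM of Ccn2, but 157 of its 159 UMIs lay in 1 of 69 cells.

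**Figure D1:**
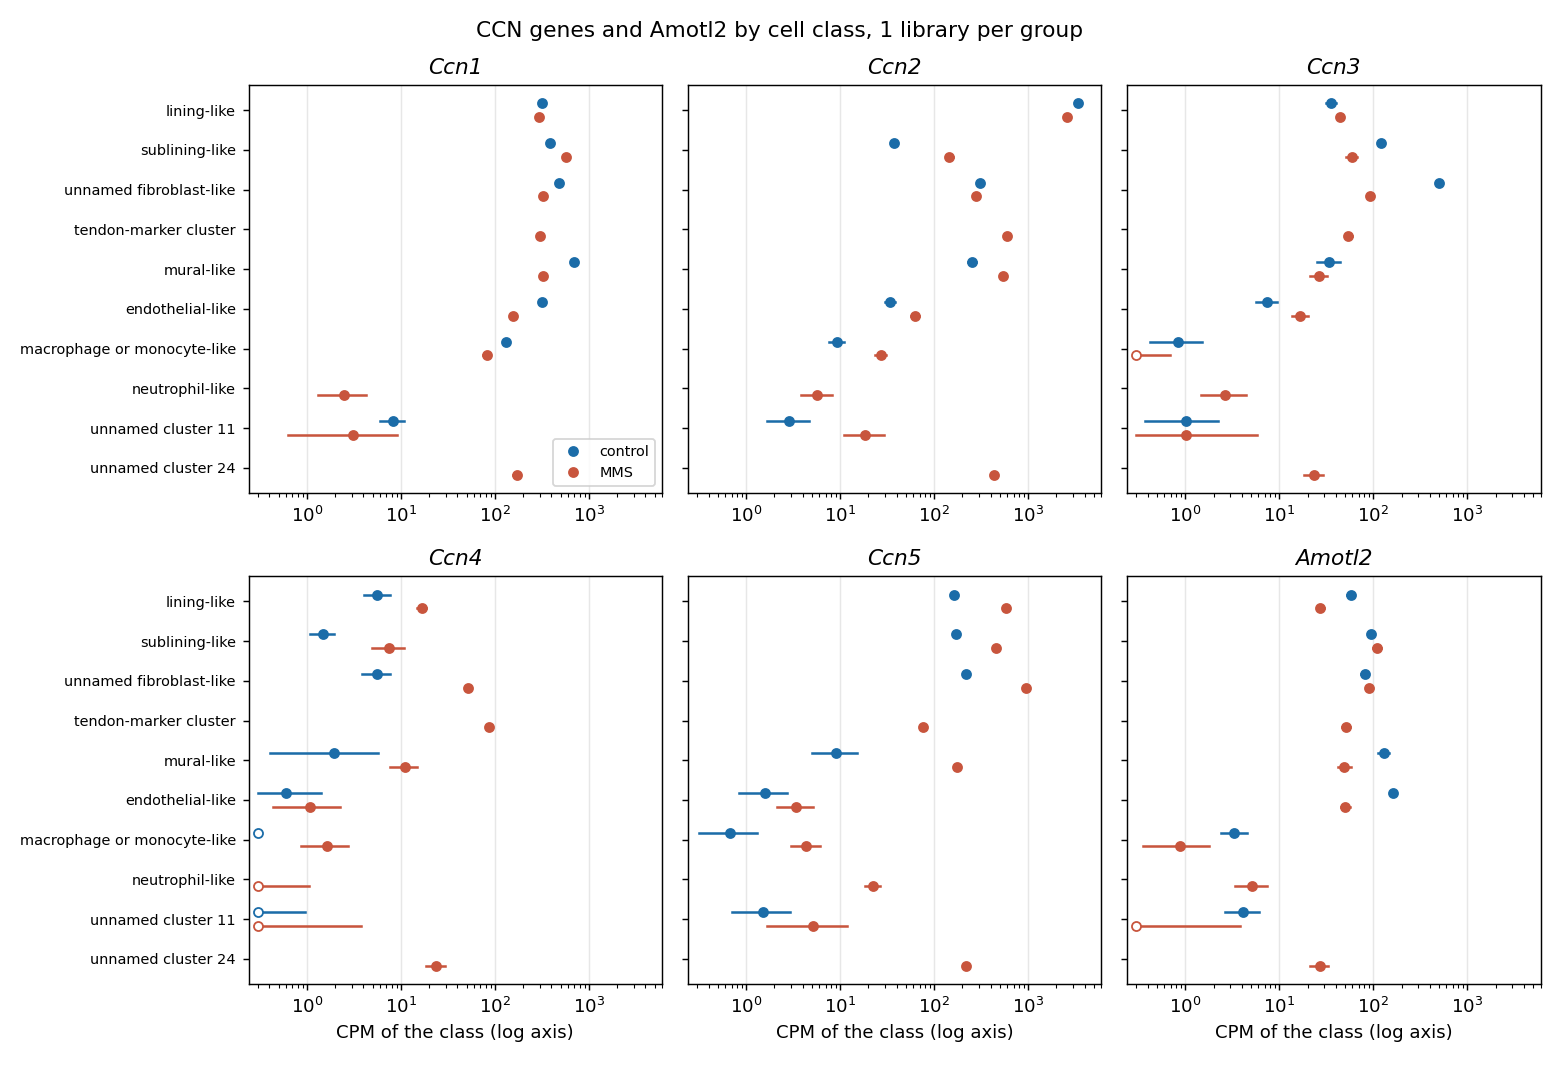
Level of the 5 CCN genes and Amotl2 in each cell class (CPM, log axis) in the control (blue) and MMS (red) libraries, for classes with 50 or more cells in a library. Bars are exact Poisson 95% intervals and open points at the left edge are levels under 0.3 CPM; Ccn2 stands out in lining-like cells, at 3402 and 2573 CPM.

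The UMIs of these genes came mainly from fibroblast-like cells. That class held 96.6% of all Ccn2 UMIs in control and 84.8% in MMS, and 98.3% and 91.1% of Ccn5 UMIs. For Ccn4 the share was 92.7% in control and 55.1% in MMS, where the tendon-marker cluster held a further 38.3%. Ccn1 and Amotl2 had other sources. Endothelial-like cells held 10.7% of control and 4.96% of MMS Ccn1 UMIs, and 23.0% and 9.07% of those of Amotl2. Fewer cells of a class and less RNA per cell both lower such a share and cannot be told apart in it.

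The comparison of MMS with control asked how the level of each gene differed between the libraries. Over all fibroblast-like cells, Ccn2, Ccn4 and Ccn5 were higher in MMS by more than 2-fold and Ccn3 was lower by more than 2-fold. The Ccn2 level was 597 CPM in the control library and 1416 in the MMS library (log2 ratio 1.25, 1.23 to 1.27). Ccn5 stood at 177 and 715, log2 ratio 2.01 (1.98 to 2.05). Ccn4 stood at 2.66 and 29.7, log2 ratio 3.48 (3.22 to 3.76), from 127 and 1168 UMIs. Ccn3 stood at 158 and 65.1, log2 ratio -1.28 (-1.35 to -1.22). Ccn1 was at 391 and 335 CPM, log2 ratio -0.22 (-0.26 to -0.19), and Amotl2 at 87.2 and 60.2, log2 ratio -0.54 (-0.61 to -0.46), both within 2-fold. The count was thus 3 higher and 1 lower of the 6 genes with at least 10 UMIs. Among all 16086 genes read in the same way, 9.95% were higher and 9.82% lower by 2-fold. The median log2 ratio was 0.51 over the 6 genes and 0.06 over all genes.

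These pooled values mix subsets that make up different parts of each library. Lining-like cells held 15.6% of the fibroblast-like UMIs in control and 50.1% in MMS, and sublining-like cells 71.2% and 9.62%. Ccn2 came from lining-like cells in both libraries, 88.7% of its fibroblast-like UMIs in control and 91.1% in MMS. Ccn5 did not: its lining-like share was 14.3% and 40.6%, close to the share of all UMIs in control. With lining-like and sublining-like cells given equal weight, the Ccn2 log2 ratio was -0.34 in place of 1.25, that of Ccn1 was 0.29, and Ccn4 (1.76) and Ccn5 (1.63) were the genes past 2-fold. The pooled Ccn2 ratio therefore mixes subset makeup with levels within subsets, and the part of each was not tested. Within subsets, the Ccn2 log2 ratio was -0.40 in lining-like, 1.95 in sublining-like and -0.14 in unnamed fibroblast-like cells.

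**Figure D2:**
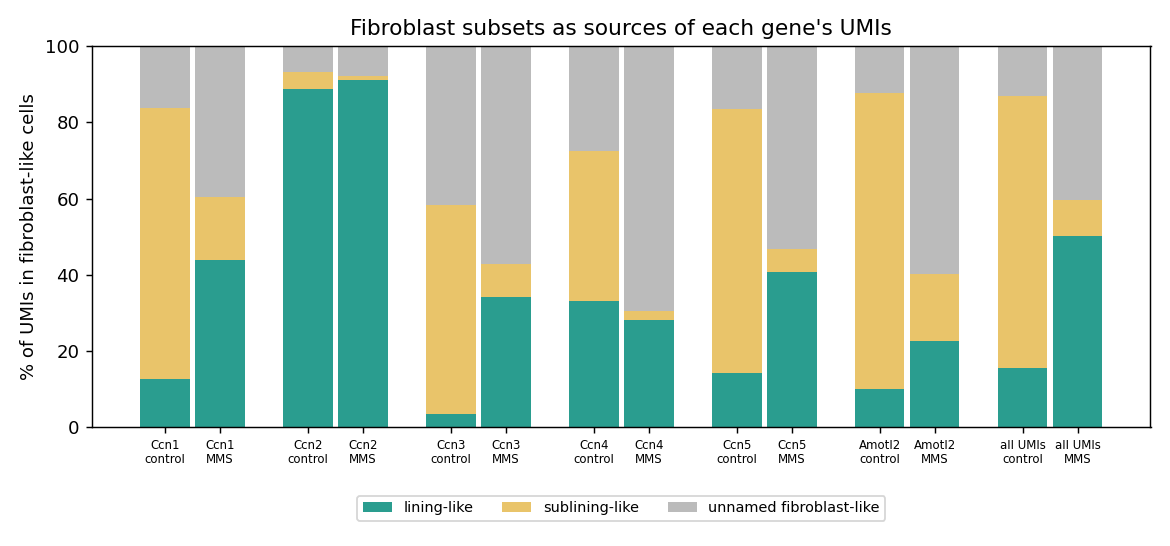
Share of each gene's fibroblast-like UMIs (percent, stacked bars) that came from lining-like, sublining-like and unnamed fibroblast-like cells, by library, with the share of all UMIs at the right. Lining-like cells gave 88.7% and 91.1% of Ccn2 UMIs, while they held 15.6% and 50.1% of all fibroblast-like UMIs.

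Within lining-like cells, Ccn2 was lower in MMS, and Ccn5 and Ccn4 were higher. The Ccn2 levels of 3402 and 2573 CPM gave a log2 ratio of -0.40 (-0.42 to -0.38). Other settings moved this ratio from -0.98 (doublets kept) to -0.10 (mitochondrial limit of 20%), with no change of direction. The Ccn5 levels were 163 and 580 CPM, log2 ratio 1.83 (1.75 to 1.92), and at 2000 UMIs per cell it was seen in 9.28% and 51.9% of lining-like cells. Ccn4 stood at 5.64 and 16.7 CPM, log2 ratio 1.56 (1.10 to 2.06), which reached 2.50 at a mitochondrial limit of 20%. Amotl2 stood at 57.2 and 27.3 CPM, log2 ratio -1.07 (-1.26 to -0.88), and with doublets kept it was -0.62, within 2-fold. Ccn1 (319 and 293 CPM, log2 ratio -0.12) and Ccn3 (35.9 and 44.3, log2 ratio 0.30) lay within 2-fold. Of the 6 genes, 2 were higher and 1 lower by 2-fold, beside 4.99% and 6.74% of 13569 genes. Other settings moved the Ccn3 value from -2.45 to 0.57, so no direction is given for it. Control cells of the subset lay mainly in sub-clusters 12 and 5 (147 and 107 cells) and MMS cells in sub-cluster 10 (380 cells, 15 in control).

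Sublining-like cells had higher Ccn2, Ccn4 and Ccn5 in MMS and lower Ccn3. Ccn2 stood at 37.4 and 144 CPM, log2 ratio 1.95 (1.80 to 2.09), Ccn4 at 1.47 and 7.40, log2 ratio 2.33 (1.61 to 3.03), and Ccn5 at 172 and 455, or 2.64-fold higher (log2 interval 1.32 to 1.48). Ccn3 stood at 122 and 59.0 CPM, log2 ratio -1.05 (-1.25 to -0.85), and with other settings the value reached -0.22. Other settings also moved the Ccn4 value as far as 4.19 (mitochondrial limit of 20%), and resolution 2 gave 2.38 for Ccn5 and 1.23 for Ccn2, with no change of direction in these 3 genes. Ccn1 (390 and 577 CPM, log2 ratio 0.57) and Amotl2 (94.9 and 109, log2 ratio 0.20) were within 2-fold. The count was 3 higher and 1 lower, beside 8.90% and 5.03% of 14426 genes. Most control cells of the subset lay in sub-clusters 9, 6, 3 and 8 (563, 514, 461 and 380 cells), while most MMS ones lay in sub-cluster 16 (147 cells, 3 in control). The sublining-like comparison is therefore largely between different clusters.

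**Figure D3:**
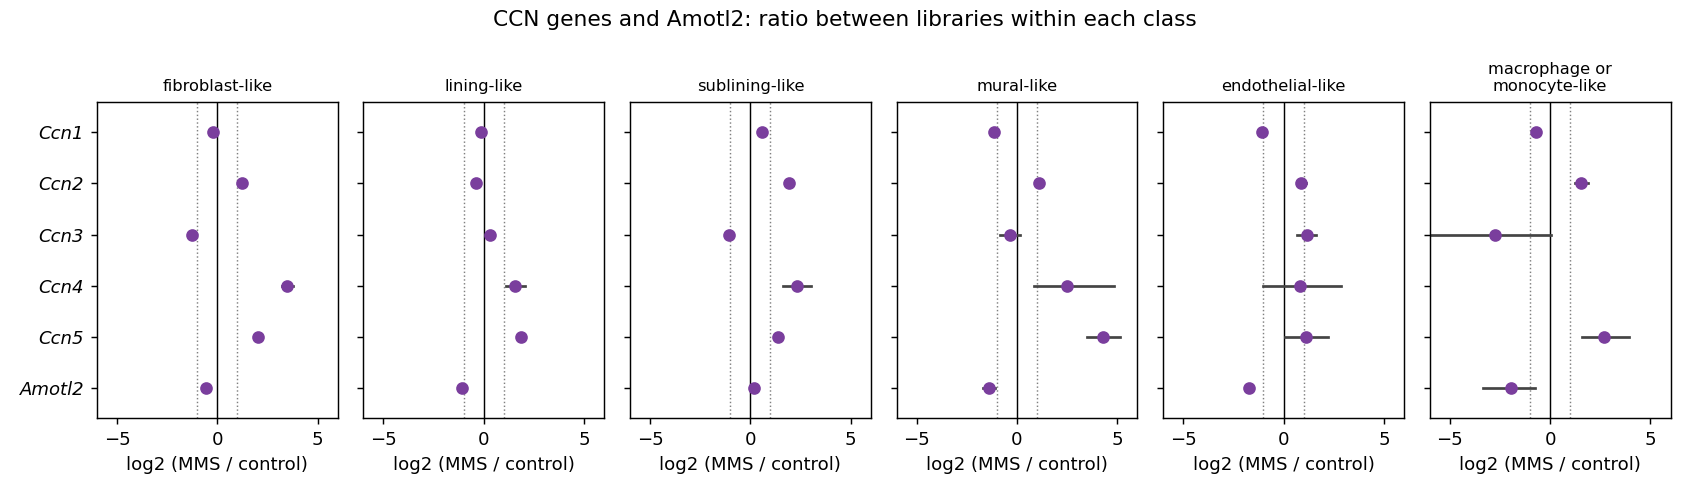
Log2 ratio of MMS over control for each gene within 6 cell classes, with exact 95% intervals for counting error; dotted lines mark 2-fold. The macrophage panel leaves out Ccn4, which had 0 control UMIs, and the Ccn3 interval there runs past the axis. Ccn5 lies right of 0 in every class shown, Ccn2 lies at -0.40 in lining-like cells and right of 0 in the other classes, and Amotl2 lies at -1.70 in endothelial-like cells.

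The same genes were then read within the fibroblast sub-clusters that held at least 20 cells of each library. Sub-clusters 11 (Hhip, Sema3d) and 12 (Rarres1, Fut9) had the highest Ccn2 levels in control, 4410 and 4355 CPM. In MMS, the highest were 12 at 3858 from 29 cells, 10 (Slpi, Prg4) at 2750 and 11 at 2535. The log2 ratio of Ccn2 was -0.80 in sub-cluster 11 (78 and 81 cells) and -0.17 in 12 (147 and 29 cells), while it was 0.39 in sub-cluster 5 (Galnt9, Cxcl12), a lining-like group with lower levels of 823 and 1079 CPM. In the sublining-like sub-cluster 0 (Fmo2, Gdf10), Ccn2 stood at 20.1 and 458 CPM over 138 and 47 cells. In sub-cluster 1, at 167 and 177 CPM, the interval of its ratio spanned 0. Ccn2 was thus lower in MMS in the pair of sub-clusters with its highest control levels, and higher in sub-clusters 5 and 0. In lining-like sub-cluster 10, under the limit with 15 control cells beside 380 in MMS, it was higher in MMS, at 2115 and 2750 CPM.

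Ccn5 showed another pattern. In lining-like sub-clusters 11 and 12 it was nearly unseen in control, at 6.47 and 5.96 CPM, and stood at 178 and 92.2 in MMS, log2 ratios of 4.78 (3.93 to 5.79) and 3.95 (3.24 to 4.72). In control, 5.13% of sub-cluster 11 cells held a Ccn5 UMI, and in MMS 61.7%, at median depths of 21958 and 36090 UMIs. Among MMS neutrophil-like cells that share was 6.17%, and among control cells of cluster 11 of all cells it was 2.53%. Sub-cluster 5 stood at 413 and 1335 CPM, log2 ratio 1.69, and sub-cluster 0 at 27.9 and 214, log2 ratio 2.94. In sub-cluster 1, led by Mmp13 and Lrrc15 with 23 control and 481 MMS cells, Ccn5 stood at 1324 and 1020 CPM, log2 ratio -0.38 (-0.47 to -0.28). Of sub-clusters 0, 1, 5, 11 and 12, this one alone had lower Ccn5 in MMS, and it had the highest control level of the gene among them. In lining-like sub-cluster 10, under the limit with 15 control cells beside 380 in MMS, Ccn5 was lower in MMS as well. It stood there at 927 and 575 CPM, from 474 and 7789 UMIs.

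Among sub-clusters of 20 or more cells, Ccn4 was highest in the same sub-cluster 1, at 40.4 and 55.0 CPM, log2 ratio 0.44 (-0.09 to 1.03). In lining-like sub-clusters 5 and 11 it stood at 2.92 and 3.53 CPM in control and at 21.2 and 14.8 in MMS. In lining-like sub-cluster 12 it stood at 3.97 and 2.33 CPM, log2 ratio -0.77 (-3.95 to 1.36). In lining-like sub-cluster 10, with 15 control and 380 MMS cells, it stood at 33.2 and 17.2 CPM, from 17 and 233 UMIs. Ccn3 was highest in control sub-clusters 13 (Slurp1, Ltbp2) and 9 (Pi16, Dpp4), at 673 and 255 CPM. These held 230 and 563 control cells but 17 and 11 MMS cells, so the sub-clusters with the highest Ccn3 held few cells in MMS. Within sub-clusters shared by both libraries, weighted together, the Ccn3 log2 ratio was 0.06. Amotl2 was lower in MMS in sub-clusters 11 (log2 ratio -0.96) and 12 (-1.26), at 115 and 59.1 CPM and at 22.4 and 9.34 CPM. Ccn1 was lower in the same groups (-0.40 and -0.37) and higher in sub-clusters 5 (0.28) and 0 (0.89). Sub-cluster 2 was led by haemoglobin and neutrophil genes at a median depth of 1972 and 1675 UMIs, and its values are not read.

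**Figure D4:**
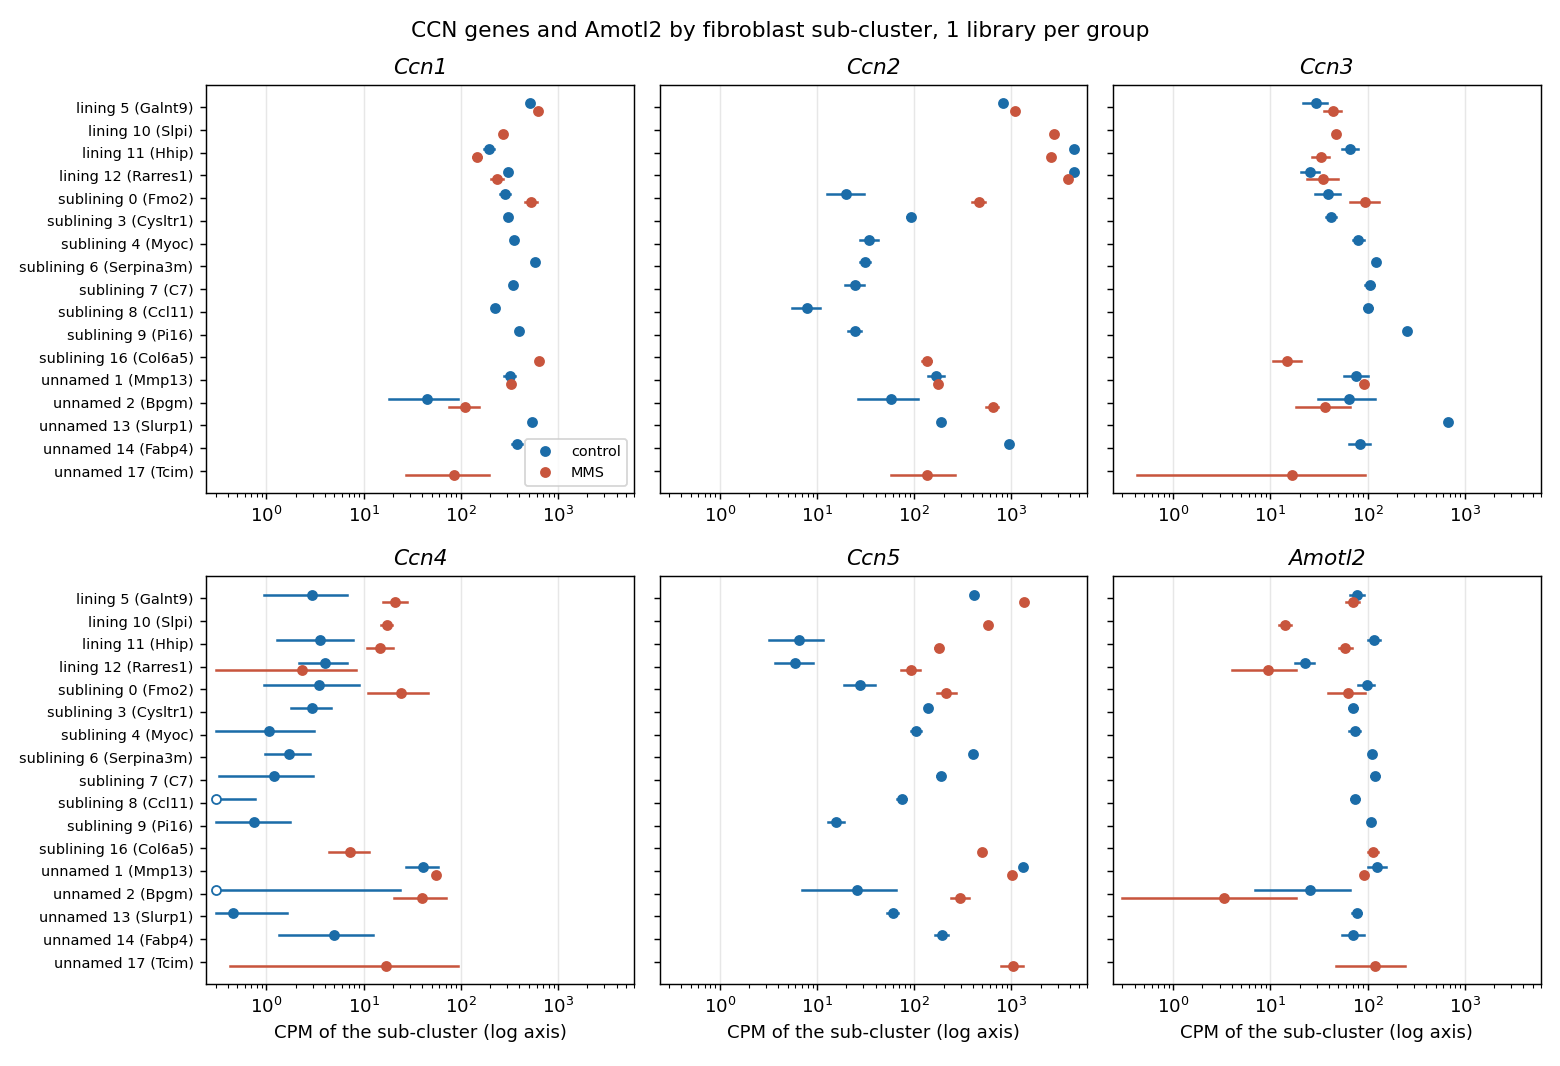
Level of each gene (CPM, log axis) in fibroblast sub-clusters with 20 or more cells of a library, named by subset, number and leading gene, in control (blue) and MMS (red), with exact Poisson 95% intervals and open points under 0.3 CPM. Ccn5 in lining sub-clusters 11 and 12 lies at 6.47 and 5.96 CPM in control and 178 and 92.2 in MMS, while in sub-cluster 1 it lies at 1324 and 1020.

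In endothelial-like cells, Ccn1 and Amotl2 were both lower in MMS. Ccn1 stood at 320 CPM in control and at 154 in MMS, with a log2 ratio of -1.05 (-1.16 to -0.95). Amotl2 stood at 163 and 50.3, log2 ratio -1.70 (-1.88 to -1.52). At 2000 UMIs per cell, Amotl2 was seen in 27.3% of control and 10.9% of MMS endothelial-like cells, and Ccn1 in 33.5% and 17.2%. MMS neutrophil-like cells gave 0.660% and 0.330% for these genes at that depth. The median depth of endothelial-like cells was 3431 UMIs in control and 6938 in MMS. Most control cells lay in clusters 4 and 3 (766 and 629 cells), marked by the capillary genes Gpihbp1 and Car4, while the largest group of MMS cells lay in cluster 5 (282 cells, 125 in control), marked by Selp and Vwf. Both genes were lower in each of the 5 endothelial-like clusters, with log2 ratios from -1.77 to -1.30 for Amotl2 and from -1.72 to -0.48 for Ccn1. Cluster 4 held Amotl2 at 212 and 62.0 CPM and cluster 5 at 111 and 44.9.

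Ccn3 in endothelial-like cells stood at 7.40 and 16.5 CPM, log2 ratio 1.16 (0.69 to 1.64), and Ccn5 at 1.58 and 3.43, log2 ratio 1.12 (0.07 to 2.23). Ccn2 stood at 33.7 and 62.4, log2 ratio 0.89. Cluster 5 held 56 of the 61 control and 99 of the 106 MMS UMIs of Ccn3, and there the gene was lower in MMS, at 56.3 and 27.4 CPM. Ccn2 in that cluster was lower as well, at 133 and 89.3 CPM. The higher class values of Ccn2 and Ccn3 thus did not hold within the cluster that supplied most of their MMS UMIs. By 2-fold, 2 genes were higher and 2 lower of 6, beside 9.04% and 4.77% of 13024 genes. Ccn5 was at 0.63 with doublets kept, within 2-fold, and at 3.28 with a mitochondrial limit of 5%, and Ccn2 was at 0.33 with cells reduced to 2000 UMIs. Stromal RNA was present in the class: Prg4 stood at 81.9 and 176 CPM and Col1a1 at 40.5 and 80.3, while the 8 fibroblast markers summed to 271 and 285 CPM and the 9 lining markers to 757 and 703. Ccn5 made 19.3 and 19.5 UMIs for every 1000 of Prg4, and the part of stromal RNA in its higher value was not tested. Ccn4, with 5 and 7 UMIs, is not read.

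Mural-like cells also had lower Ccn1 and Amotl2 in MMS. Ccn1 stood at 701 and 322 CPM, log2 ratio -1.12 (-1.24 to -0.999), and Amotl2 at 129 and 49.3, log2 ratio -1.39 (-1.70 to -1.09). Ccn2 stood at 251 and 541, log2 ratio 1.11 (0.95 to 1.27), Ccn4 at 1.95 and 10.9, from 3 and 38 UMIs (log2 ratio 2.49, 0.83 to 4.83), and Ccn5 at 9.10 and 175, log2 ratio 4.27 (3.51 to 5.15). Ccn3 stood at 33.8 and 26.5, and the interval of its ratio spanned 0. The count was 3 higher and 2 lower, beside 8.75% and 5.91% of 12292 genes. Lining markers moved with the higher values: all 9 were detected in both libraries, and they summed to 1838 CPM in control and 25141 in MMS mural-like cells. Prg4, the lubricin gene of lining fibroblasts, stood at 1139 and 22835 CPM there. For every 1000 Prg4 UMIs, MMS mural-like cells held 23.7 of Ccn2 and 7.67 of Ccn5, and MMS lining-like cells 23.1 and 5.22, while the ratio for Ccn1 was 14.1 against 2.63. The part of fibroblast RNA in the Ccn2, Ccn4 and Ccn5 values was not tested. With cells reduced to 2000 UMIs, 5 genes could be read, of which Ccn5 (3.02) was higher by 2-fold and Amotl2 (-1.43) and Ccn3 (-1.41) lower. Ccn1 (-0.70) and Ccn2 (0.44) then lay within 2-fold. As a mean over cells, Ccn4 (2.13), Ccn5 (3.25) and Amotl2 (-1.22) were past 2-fold, and Ccn1 (-0.89) and Ccn2 (0.57) were not.

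Macrophage or monocyte-like cells held Ccn1 at 131 and 81.8 CPM, log2 ratio -0.68 (-0.82 to -0.55), and it was lower in each of their 3 clusters (-0.60, -0.47 and -0.44). Control cells lay mainly in clusters 14 and 12 (508 and 486 cells) and MMS cells in cluster 15 (304 cells, 62 in control). With a mitochondrial limit of 5% the class value was 0.18, and that limit also gave 1.43 for Amotl2, 2.73 for Ccn3, 4.66 for Ccn2 and 7.11 for Ccn5. Doublet calling differed there too: 2 of 2767 MMS and 159 of 5460 control cells were called doublets, against 106 of 3871 and 184 of 7075 in the main setting. The other genes were scarce: Ccn2 stood at 9.24 and 27.2, Ccn5 at 0.682 and 4.36, Amotl2 at 3.33 and 0.873 and Ccn3 at 0.833 and 0.125 CPM. Ccn3 rested on 11 and 1 UMIs, log2 ratio -2.74 (-8.17 to 0.04). Ccn4 had 0 UMIs in control and 13 in MMS. With 3 counts in place of the 0 its log2 ratio was 2.83, and the lower limit of the interval was 2.33. By 2-fold, 3 were higher and 2 lower, beside 5.66% and 4.66% of 12969 genes. Prg4 stood at 34.7 and 216 CPM in these cells, and the part of free RNA in the higher values was not tested. At 2000 UMIs per cell, 3 of the genes could be read, of which Ccn2 (1.06) and Ccn5 (1.58) were higher by 2-fold, beside 418 higher and 573 lower of 10119 genes.

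Genes of the pathway around the CCN family were read in fibroblast-like cells from lists of the pathway's parts, its targets and related factors. Their counts stand beside 9.95% of all genes higher and 9.82% lower in that class. The 15 kinases, adaptors and scaffolds of the Hippo pathway had no gene past 2-fold in either direction and a median log2 ratio of -0.06, where the median of all genes was 0.06. Among those that reached 50 UMIs in either library, the highest were Nf2, the merlin tumour suppressor (15.4 and 19.6 CPM), and Amot (3.62 and 4.55), and the lowest Amotl1 (146 and 104), Stk4 (16.9 and 12.8) and Sav1 (87.6 and 69.9). Among YAP, TAZ, TEAD and VGLL genes, 8 of 9 were read, 1 was higher (Tead2, 3.89 and 7.94 CPM) and 1 lower (Tead4, with 11 and 2 UMIs). Yap1 stood at 33.3 and 40.4 CPM and Wwtr1, which encodes TAZ, at 81.6 and 102. Of 18 other YAP target genes, 2 were higher and 3 lower, with a median of -0.12. Gadd45a, a stress and DNA damage gene, stood at 25.3 and 166 CPM and Dock5 at 1.34 and 4.78, while Igfbp3 stood at 40.2 and 9.59, F3 at 31.8 and 11.9 and Tgfb2 at 174 and 71.2. With so few genes, these counts lie near the shares over all genes, and nothing is read from them about YAP targets.

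Contractile and cytoskeletal genes of the SRF and MRTF factors had 5 of 12 higher and 1 lower (Cnn1, with 8 and 3 UMIs), with a median of 0.77. This and the other fibroblast-like counts below again stand beside 9.95% of all genes higher and 9.82% lower. Tead4 and Cnn1 lie under the 50 UMIs asked of a named gene and are named only to complete these counts. Actn1, an actin crosslinker, stood at 19.1 and 88.1 CPM, Tagln at 5.73 and 23.7 and Tpm2 at 22.9 and 76.4. Within lining-like cells the list had 0 of 11 past 2-fold and a median of 0.22, beside 4.99% of all genes higher and 6.74% lower. Within sublining-like cells it had 2 of 11 higher (Actn1 and Myl9) and a median of 0.10, beside 8.90% higher and 5.03% lower. The TGF-beta list had 1 of 12 higher, the ligand Tgfb1 (41.2 and 103 CPM), and 1 lower, the ligand Tgfb2, with a median of 0.04. Of 13 receptors reported for CCN proteins, 1 was higher, the integrin chain Itga6 (35.5 and 86.7 CPM), and the median was 0.08. Itga6 stood at 184 and 151 CPM in lining-like cells, and at 3.29 and 16.4 in sublining-like cells. Itgb1, the chain that pairs with Itga6 and many other integrin chains, stood at 288 and 465 CPM in fibroblast-like cells. Wnt target and inhibitor genes had 3 of 12 higher (Lgr5, Tcf7 and Dkk3) and 3 lower (Frzb, Dkk2 and Nkd1), with a median of -0.43, and housekeeping genes had 0 of 12 past 2-fold and a median of 0.17.

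Immediate early genes, which tissue dissociation can induce, were lower in MMS in several of the same classes. In fibroblast-like cells 13 of 18 were lower in MMS by 2-fold and 0 higher, with a median log2 ratio of -1.31, and Jun stood at 2476 and 715 CPM, Atf3 at 719 and 140 and Klf4 at 1945 and 573. The median was -0.74 in lining-like, -0.40 in sublining-like, -1.05 in mural-like, -0.26 in endothelial-like and -0.01 in macrophage or monocyte-like cells. Ccn1 is itself an immediate early gene. Its log2 ratios in those classes were -0.12, 0.57, -1.12, -1.05 and -0.68, and the part of dissociation in them was not tested.

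**Figure D5:**
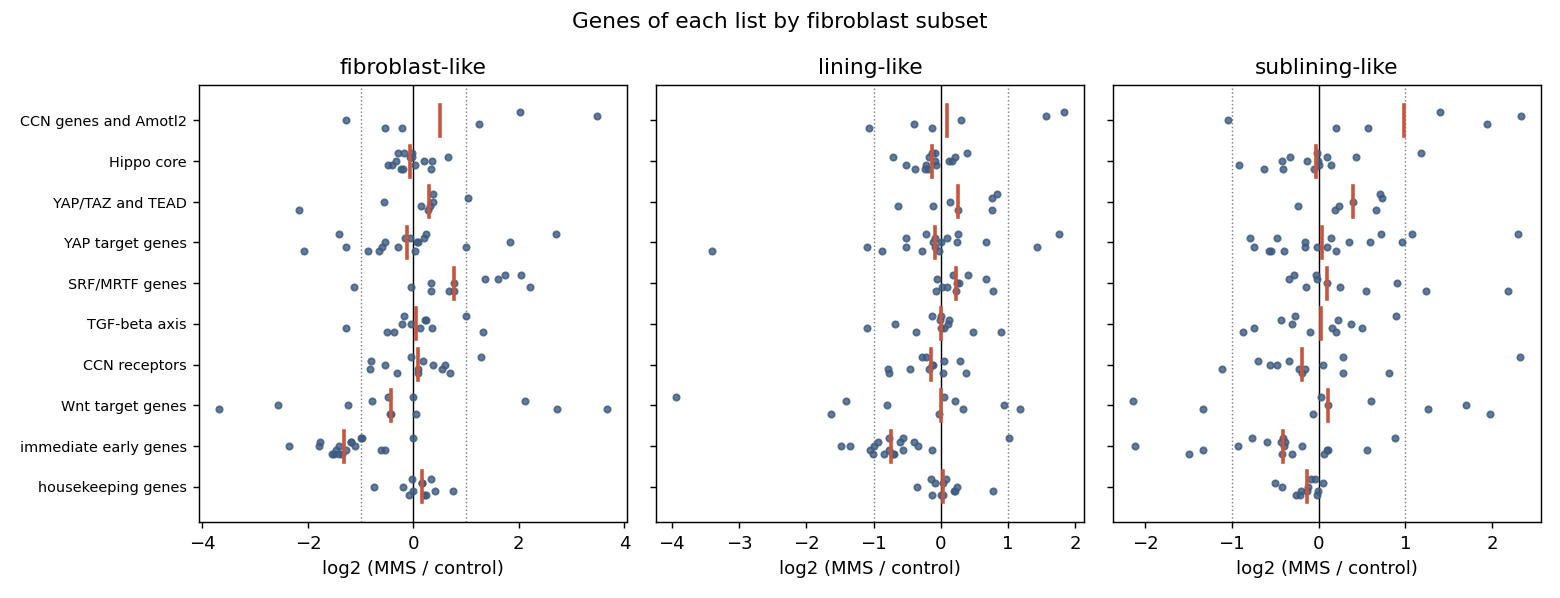
Log2 ratio of MMS over control for each gene of 10 lists (points) and the list's median (red bar) in fibroblast-like, lining-like and sublining-like cells; dotted lines mark 2-fold, and genes have at least 10 UMIs over both libraries. Immediate early genes have medians of -1.31, -0.74 and -0.40, and Hippo core genes have none past 2-fold in the first 2 panels and 1 (Amot) in the third.

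Likeness between genes was described across 31 units, each a class or fibroblast sub-cluster of 50 or more cells in 1 library, as Pearson's r of log2(CPM + 1) over 10372 genes. The units share libraries, depth and broad lineage, so r describes these units only. Ccn2 was most like Hbegf (0.91), Tmem196 (0.91), Prg4 (0.91), Sema3a (0.90) and Htra4 (0.90), of which Prg4, Hbegf and Htra4 are lining markers used to name the subset. Ccn5 was most like the collagen crosslinking enzyme gene Lox (0.94), followed by Lum (0.89), Ptx3 (0.88), Chl1 (0.86) and Serpina3n (0.84). Ccn4 was most like Fbn2 (0.91) and the tenascin gene Tnc (0.88), then Cemip, Hhipl1 and Chpf2 (0.84 to 0.87). Ccn3 was most like Fez1 (0.92), Ntn1, Slc2a10, Fbn1 and Ackr3 (0.88 to 0.89 for the last 4), Ccn1 like Mr1, Laptm4a, Ehbp1, Sgce and Rhoj (0.91 to 0.93), and Amotl2 like Npr2, Syde1, Gulp1, Cped1 and Tgfbr3 (0.88 to 0.90). Among the 7 genes, Ccn1 was most like Amotl2 (0.76) and Amotl2 next like Ccn3 (0.68), whereas r was 0.41 for Ccn1 with Ccn2 and 0.40 for Ccn2 with Ccn5.

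Detection of Ccn2 and Ccn5 was then compared cell by cell. In control lining-like cells reduced to 2000 UMIs, Ccn5 was seen in 6.54% (3.86 to 10.3) of 260 cells with a Ccn2 UMI and in 17.6% (10.2 to 27.4) of 85 cells without one, with exact Clopper-Pearson 95% intervals. In MMS the shares were 50.1% (45.7 to 54.5) of 509 and 64.4% (52.3 to 75.3) of 73. The intervals overlapped in both libraries. The share of lining-like cells with UMIs of 2 or more of the 7 genes at that depth was 37.97% in control and 65.8% in MMS.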

How the data were processed

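Single-cell RNA-seq of wild-type mouse synovium was analysed in 2 libraries, control and MMS, each from 20 pooled knees, so that no comparison has replicates. The authors deposited raw counts, whole UMIs per gene and cell, as 10x matrices. Cell Ranger 5.0.0 made the matrices per the file headers. Version 2.0.0 and build mm10 are given per the submitters' processing notes. Of 32285 gene identifiers, 32158 matched GENCODE M21.

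Cells with at least 1000 UMIs, 500 genes and at most 10% mitochondrial UMIs were kept, and scrublet called 184 of 7075 control and 106 of 3871 MMS cells doublets, which were removed. Scanpy 1.11.5 clustered the cells (2000 variable genes, 30 components, 15 neighbours, Leiden resolution 1) into 27 clusters, and fibroblast-like cells into 18 sub-clusters. Classes were named from marker lists, by naming rules that were adjusted over several rounds after the clusters had been seen. The 7 genes and all gene lists were chosen with earlier results of these data known, and the readings within endothelial-like and macrophage clusters and shared sub-clusters were added after seeing the data.

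UMIs were summed per class and scaled to CPM of the class total. Levels have exact Poisson 95% intervals, shares Clopper-Pearson intervals and ratios conditional binomial intervals (scipy 1.17.1), tested on simulated data. These cover counting error only, since cells of 1 library are not replicates. A gene was counted in a class where both libraries together held at least 10 UMIs, a minimum that was applied to the 7 genes after the values of Ankrd1 had been seen. A ratio against 0 UMIs was taken with 3 counts in place of the 0, and past 2-fold describes size without a test. Shares of cells were also taken after each cell was thinned to 2000 UMIs, leaving out shallower cells. List genes were named as the up to 3 highest and lowest ratios among genes that reached 50 UMIs in the library with the higher level, and like genes as the 5 with the highest r.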

Additional observations from a re-analysis of the deposited data

How the results depend on the processing

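The number of the 7 genes past 2-fold in fibroblast-like cells was 4, and it was 2 when the lining-like and the sublining-like subset had equal weight and 1 within sub-clusters shared by both libraries, an alternative chosen after seeing the data. In macrophage or monocyte-like cells the number was 5, and it was 3 with doublets kept and 2 of 3 readable genes with cells thinned. In mural-like cells it was 5, and it was 3 as a mean over cells and 3 of 5 readable genes with cells thinned. Log2 ratios changed sign in fibroblast-like cells with equal weights for Ccn1 (0.29) and Ccn2 (-0.34), and within shared sub-clusters for Ccn1 (0.10), Ccn2 (-0.36) and Ccn3 (0.059). In lining-like cells they changed sign for Ccn1 with cells thinned (0.022) and for Ccn3 at a minimum of 500 UMIs (-2.45) and a mitochondrial limit of 20% (-2.39). In macrophage or monocyte-like cells the limit of 5% gave Ccn1 0.18, Amotl2 1.43 and Ccn3 2.73, where Ccn3 had been -2.74 with an interval that reached 0.04. The median of the CCN receptor list in sublining-like cells was 0.10 with cells thinned. The cause was not tested in any of these. Ccn4 and Ccn5 kept their direction in fibroblast-like cells over all 17 alternatives, from 1.19 to 3.99 and from 0.82 to 2.41. The alternative of 500 UMIs also lowered the gene minimum, and each resolution changed the sub-clusters too. The mitochondrial limit of 5% also changed doublet calling, with 2 of 2767 MMS and 159 of 5460 control cells called doublets. No paired analysis was possible because each group has 1 library, and no library could be left out for the same reason.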
